A study of Mus musculus with 137 samples.

Results

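The mRNAs described here encode the kinetochore and the spindle checkpoint, and each was measured in mouse embryos of 2 cells, 1 embryo to a library. The genes are 39 of the 36043 gene symbols in the deposited counts: every symbol that begins with Cenp, and Ndc80, Nuf2, Spc24, Spc25, Bub1, Bub1b, Bub3, Mad1l1, Mad2l1, Ttk, Aurka, Aurkb, Aurkc, Incenp, Birc5, Plk1, Cdc20 and Mos. They were chosen by name, without use of their values, though earlier results of these data were known. Embryos came from the B6129F1 cross, were isolated as zygotes 5 hours after fertilization and grew in KSOM in wet chambers that had no oil layer. From 6 hours after fertilization the 29 embryos labelled DMSO had 0.1% DMSO in the medium, the solvent control, and the 41 embryos labelled SR1848 had 10 µM SR1848, which inhibits NR5A2, a nuclear receptor. The 67 embryos labelled SR1848_NR5A2OE had 10 µM SR1848 and NR5A2 mRNA at 500 ng/µl. Injected embryos also carried GFP sequence, which the labels do not name, and no group is labelled as injected without NR5A2 mRNA, so that effects of NR5A2, of GFP and of the injection itself cannot be told apart. Experiment 1 held 19, 17 and 27 embryos of these groups and experiment 2 held 10, 24 and 40.

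A kinetochore is the protein assembly that joins a chromosome to the spindle. Its inner layer, the CENP proteins, sits on chromatin marked by the histone CENP-A, and its outer layer, with the NDC80 complex, grips microtubules. Chromosomes that are not yet attached recruit the checkpoint proteins, which hold back CDC20, the activator of the anaphase-promoting complex, until every chromosome is attached. AURKB or AURKC, INCENP and BIRC5 are subunits of the chromosomal passenger complex, which corrects faulty attachments. In mouse the first divisions draw on mRNA stored in the oocyte, much of which is broken down around the 2-cell stage while the embryo begins its own transcription. A level measured in a whole embryo does not tell these pools apart, nor the number of cells from the RNA in each cell.

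Library totals ran from 100883 to 9317721 estimated counts (median 4694340), and 7 libraries were low (a total under 1 in 5 of the median, or under 1 in 2 of the median number of genes detected). These were DMSO 6, 13 and 16, SR1848 8 and SR1848_NR5A2OE 22 of experiment 1, and SR1848_NR5A2OE 27 and 40 of experiment 2. The injected mRNA was read first. Nr5a2 had a median of 52.5 CPM, the usual unit of counts scaled to the library total, in embryos labelled SR1848, 218 in those labelled DMSO and 2562 in those labelled SR1848_NR5A2OE. In experiment 2 libraries 1 to 8 labelled DMSO had medians of 2491 CPM of GFP and 2414 of Nr5a2, with DMSO 2 at 296 and 566 and DMSO 4 at 47.4 and 239, the last near the other DMSO libraries in Nr5a2. In contrast, libraries 1 to 8 labelled SR1848_NR5A2OE in that experiment had at most 0.452 CPM of GFP and a median of 242 CPM of Nr5a2. As sets, these 16 libraries carry the reverse of what their labels say. Another 14 SR1848_NR5A2OE libraries, not low, had under 100 CPM of GFP and a median of 175 CPM of Nr5a2. Groups are named as labelled, and counts of called genes and the changes of the genes described are also given without the 16. Markers of 2-cell embryos (9 of 9 found) and of the oocyte (7 of 7) had no gene with a median of 0 in any group. Of 12 cumulus and granulosa markers 6 or 7 and of 9 spermatid markers 5 or 6 had a median of 0, Amh, Foxl2, Fshr, Prm1 and Tnp1 among them in every group. The summed levels differed between groups. Oocyte markers had a median sum of 859 CPM in DMSO (0 to 1583), 1589 in SR1848 (97.1 to 2119) and 1429 in SR1848_NR5A2OE (0 to 2359), and 2-cell markers 169 (0 to 3670), 276 (97.1 to 2182) and 327 (0 to 6633). Cumulus and granulosa markers had 62.5 (0 to 130.3), 17.3 (1.52 to 203) and 27.5 (0 to 156), and spermatid markers 18.1 (0 to 43.4), 6.88 (0.963 to 27.2) and 8.89 (0 to 33.2). Their part in the results was not tested.

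Promoters are shown first, since most of these genes are periodic in cycling cells and many share promoter elements. The table of RefSeq promoters (GRCm38.p6, 250 bases before to 50 after each start site) held 40 promoters of 35 of the 39 genes. The letters TTTGAA, known as the cell cycle homology region, stood on either strand in 14 of the 40 (35.0%) and in 17.9% of all 32851 promoters. The letters CCAAT stood in 27 of the 40 (67.5%) and in 37.4% of all. Both were present in 13 of the 40 (32.5%) and in 6.95% of all, and the 2 matches can share letters. AAGGTCA, the site bound by an NR5A2 monomer, was found in 1 of the 40 (2.5%), that of Cenpb, and in 4.72% of all. The windows below run from 150 bases before to 50 bases after the start site and read 5′ to 3′, with matches to TTTGAA and CCAAT on either strand in capitals. Cdc20, Cenpa and Aurka were lower with SR1848 and Ttk and Nuf2 were higher, so that the letters can be set beside opposite responses.
Cdc20 (chr4:118437294-118437493, minus strand): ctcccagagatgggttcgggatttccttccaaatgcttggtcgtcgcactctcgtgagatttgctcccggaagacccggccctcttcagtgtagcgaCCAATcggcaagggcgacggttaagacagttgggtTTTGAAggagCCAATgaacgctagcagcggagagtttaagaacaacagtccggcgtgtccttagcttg
Cenpa (chr5:30666736-30666935, plus strand): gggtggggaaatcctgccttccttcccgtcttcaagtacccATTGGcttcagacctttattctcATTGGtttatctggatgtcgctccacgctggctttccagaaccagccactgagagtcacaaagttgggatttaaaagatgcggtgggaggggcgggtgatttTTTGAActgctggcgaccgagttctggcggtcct
Aurka (chr2:172370521-172370720, minus strand): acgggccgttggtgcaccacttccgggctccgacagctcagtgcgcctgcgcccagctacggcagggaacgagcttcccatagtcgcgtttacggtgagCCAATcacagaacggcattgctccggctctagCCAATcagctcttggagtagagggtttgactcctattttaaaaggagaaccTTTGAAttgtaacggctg
Ttk (chr9:83834539-83834738, plus strand): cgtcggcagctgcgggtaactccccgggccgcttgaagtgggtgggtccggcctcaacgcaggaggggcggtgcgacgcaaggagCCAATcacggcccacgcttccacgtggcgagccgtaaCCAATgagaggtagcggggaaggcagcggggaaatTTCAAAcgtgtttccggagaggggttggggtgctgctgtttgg
Nuf2 (chr1:169531415-169531614, minus strand): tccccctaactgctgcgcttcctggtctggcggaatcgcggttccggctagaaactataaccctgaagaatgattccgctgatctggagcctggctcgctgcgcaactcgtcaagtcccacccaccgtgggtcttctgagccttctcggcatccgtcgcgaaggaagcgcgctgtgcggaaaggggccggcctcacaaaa
Ttk, which was higher, holds the same letters as Cdc20, Cenpa and Aurka, which were lower, and the Nuf2 window holds none. Of the 12 genes with both letters in a promoter 9 were lower, 2 higher (Cenpn and Ttk) and 1 neither with SR1848, against 10, 6 and 6 of the other 22 tested genes that have a promoter in the table. These are matches of letters and no test was made on them.

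SR1848 against DMSO asks what differs in embryos given the inhibitor from the zygote on. The mRNAs of the kinetochore did not move as a block. Cdc20, Cenpa, the NDC80 subunits Ndc80 and Spc25, and the mitotic kinases Aurka, Aurkb, Aurkc and Plk1 were lower in embryos labelled SR1848, while Ttk, Nuf2, Cenpo, Cenpu and Cenpn were higher. Of the 38 genes that passed the filter on low counts (Cenpb did not), 9 were higher and 21 lower at an adjusted p under 0.05 by edgeR, and their median change was -1.08 log2. Among all 14499 genes tested 33.1% were higher and 36.0% lower, with a median of -0.05. Without the 16 libraries 11 were higher and 21 lower, where 41.5% and 32.8% of all genes were. The 30 genes called in all libraries kept their call and sign there, and again without the 16 and the low libraries. In that last setting 12 were higher and 22 lower, beside 5695 and 5885 of all 15097 genes. Experiment 1 alone gave 9 higher and 20 lower, beside 4936 and 4315 of all 13603 genes. Experiment 2 alone, where 8 of the 10 DMSO libraries are among the 16, gave 3 and 5, beside 687 and 3015 of all 15253. Scaling to 69 maternal transcripts moved the median of all genes to -1.54 and the split to 3 higher and 31 lower. Of all 14499 genes 818 were higher and 9573 lower on that scale. This scaling was fitted only with all libraries, the 16 and the low ones included, so its changes were not checked without them. Under it Cenpn and Cenpv changed sign, Cenpx (-0.50) and Mad2l1 (-1.21) passed the test as lower, and Ttk and Nuf2 stayed higher. Mos stayed higher too, but 1 low library held 97.3% of the SR1848 group's Mos.

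**Figure D1:**
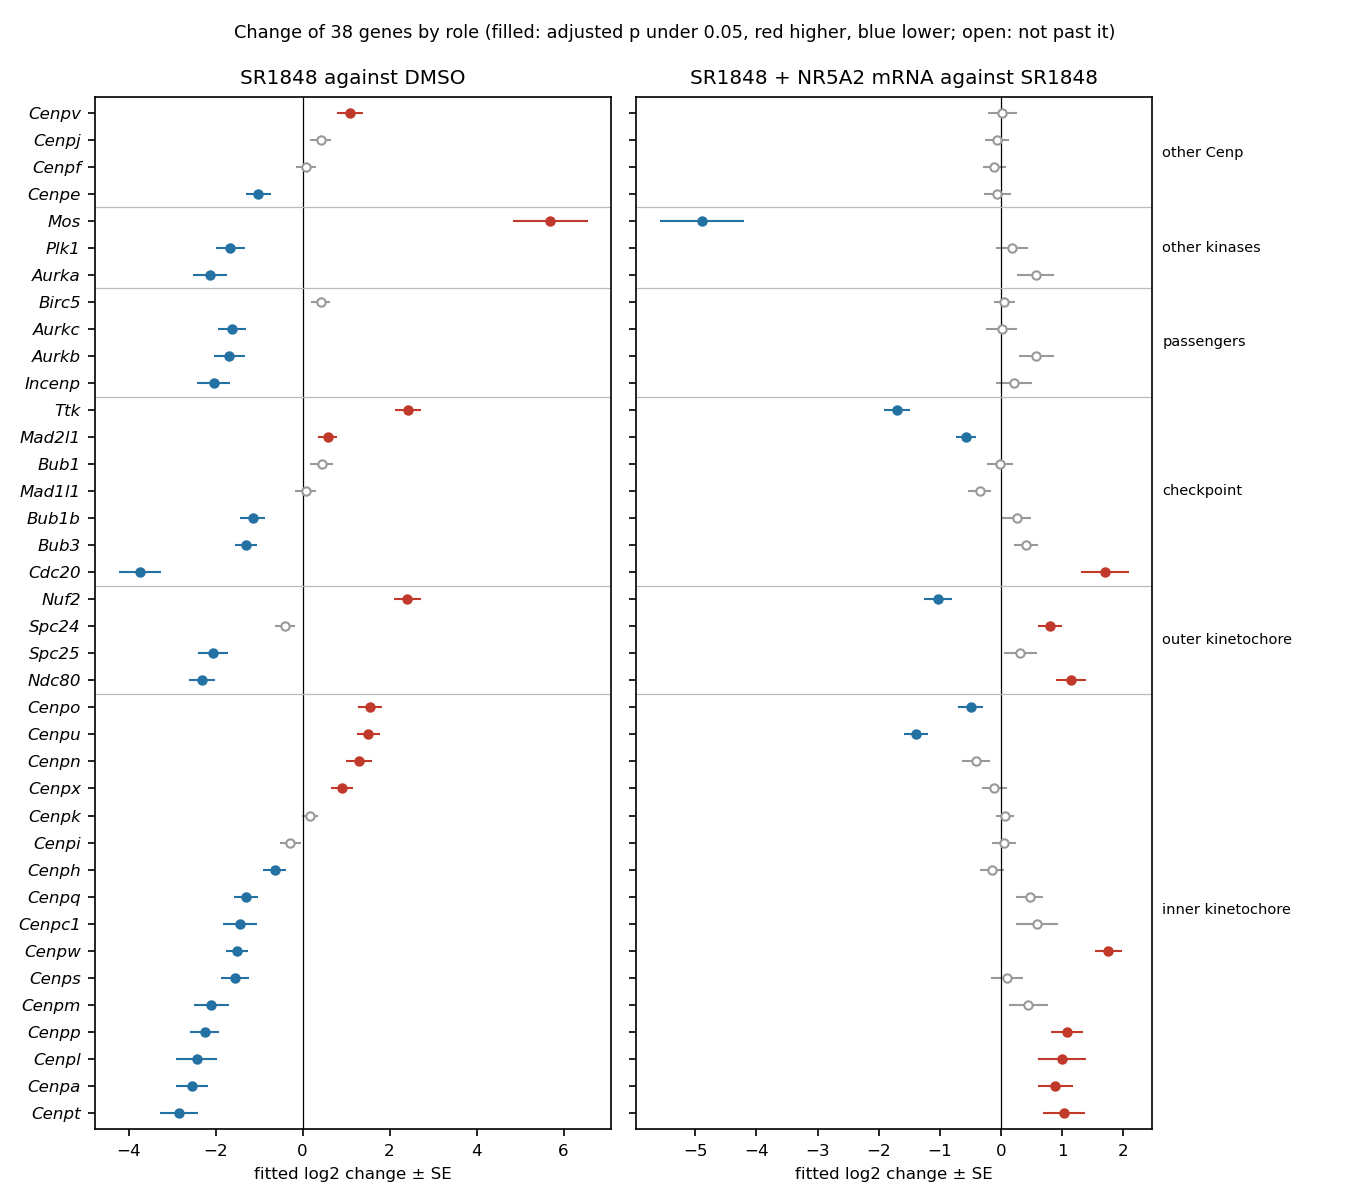
Fitted log2 change with its SE (x axes) of the 38 genes that were tested, grouped by role, for SR1848 against DMSO (left) and SR1848_NR5A2OE against SR1848 (right), all libraries. Filled red points were higher and filled blue points lower at an adjusted p under 0.05, and open points did not pass; 9 are red and 21 blue on the left, 8 red and 6 blue on the right.

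Of the 16 inner kinetochore genes 10 were lower and 4 higher, where 36.0% and 33.1% of all genes were. Cenpa (ENSMUSG00000029177, chromosome 5, 30666777 to 30674830 on GRCm38, plus strand) encodes the histone that marks the centromere. It ran from 0 to 417 CPM with a median of 262 in DMSO, from 0 to 122 with a median of 36.6 in SR1848, and from 0 to 434 with a median of 37.8 in SR1848_NR5A2OE. All 41 embryos labelled SR1848 lay below the DMSO median, and the fitted change was -2.54 log2 (SE 0.36, adjusted p = 8.39e-10). Without the 16 and the low libraries the DMSO embryos ran from 217 to 417 CPM and the SR1848 embryos from 18.1 to 122, with no overlap. Cenpp (ENSMUSG00000021391, chromosome 13, 49464023 to 49652785), a subunit of the group around CENP-O, is a low gene. Its median fell from 18.5 CPM (0 to 31.4) in DMSO to 3.54 (0 to 12.6) in SR1848, a change of -2.25 log2 (SE 0.33, adjusted p = 1.50e-09), and was 5.57 (0 to 28.9) in SR1848_NR5A2OE. Again each of the 41 SR1848 embryos was below the DMSO median.

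CENP-T and CENP-W bind DNA side by side and carry the NDC80 complex. Cenpt changed by -2.84 log2 (SE 0.45) and Cenpw by -1.51 (SE 0.25). Their histone-fold partners split: Cenps changed by -1.54 and Cenpx by 0.90. Cenpl and Cenpn encode a pair of proteins that dock on the CENP-A nucleosome together, and they moved in opposite directions, Cenpl by -2.43 (SE 0.47) and Cenpn by 1.30 (SE 0.30). Cenpn (chromosome 8, 116921730 to 116941507) was the most abundant of all the genes in SR1848 by level per transcript length (counts over annotated length, scaled as CPM). Its CPM ran from 0 to 1156 (median 188) in DMSO and from 78.1 to 2734 (median 833) in SR1848, where 40 of 41 embryos were above the DMSO median. Without the 16 and the low libraries the DMSO embryos ended at 289 CPM and the SR1848 embryos began at 527, and the fitted change without the 16 was 2.33. Under maternal scaling Cenpn changed by -0.07.

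The group around CENP-O, which recruits PLK1, split as well. Cenpo rose by 1.55 log2 (SE 0.27) and Cenpu by 1.51 (SE 0.26), while Cenpp, above, and Cenpq (-1.29, SE 0.28) fell. Both higher members lost their call under maternal scaling (0.23 for Cenpo and 0.03 for Cenpu). Of the group around CENP-H, Cenph fell by 0.64 log2 and Cenpm by 2.09, and Cenpi (-0.28) and Cenpk (0.17) did not pass the test. Cenpc1, the scaffold of the inner layer, changed by -1.44, but 1 low SR1848 library (SR1848 8 of experiment 1) held 54.9% of the group's CPM. Without the low libraries its change was -2.72.

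**Figure D2:**
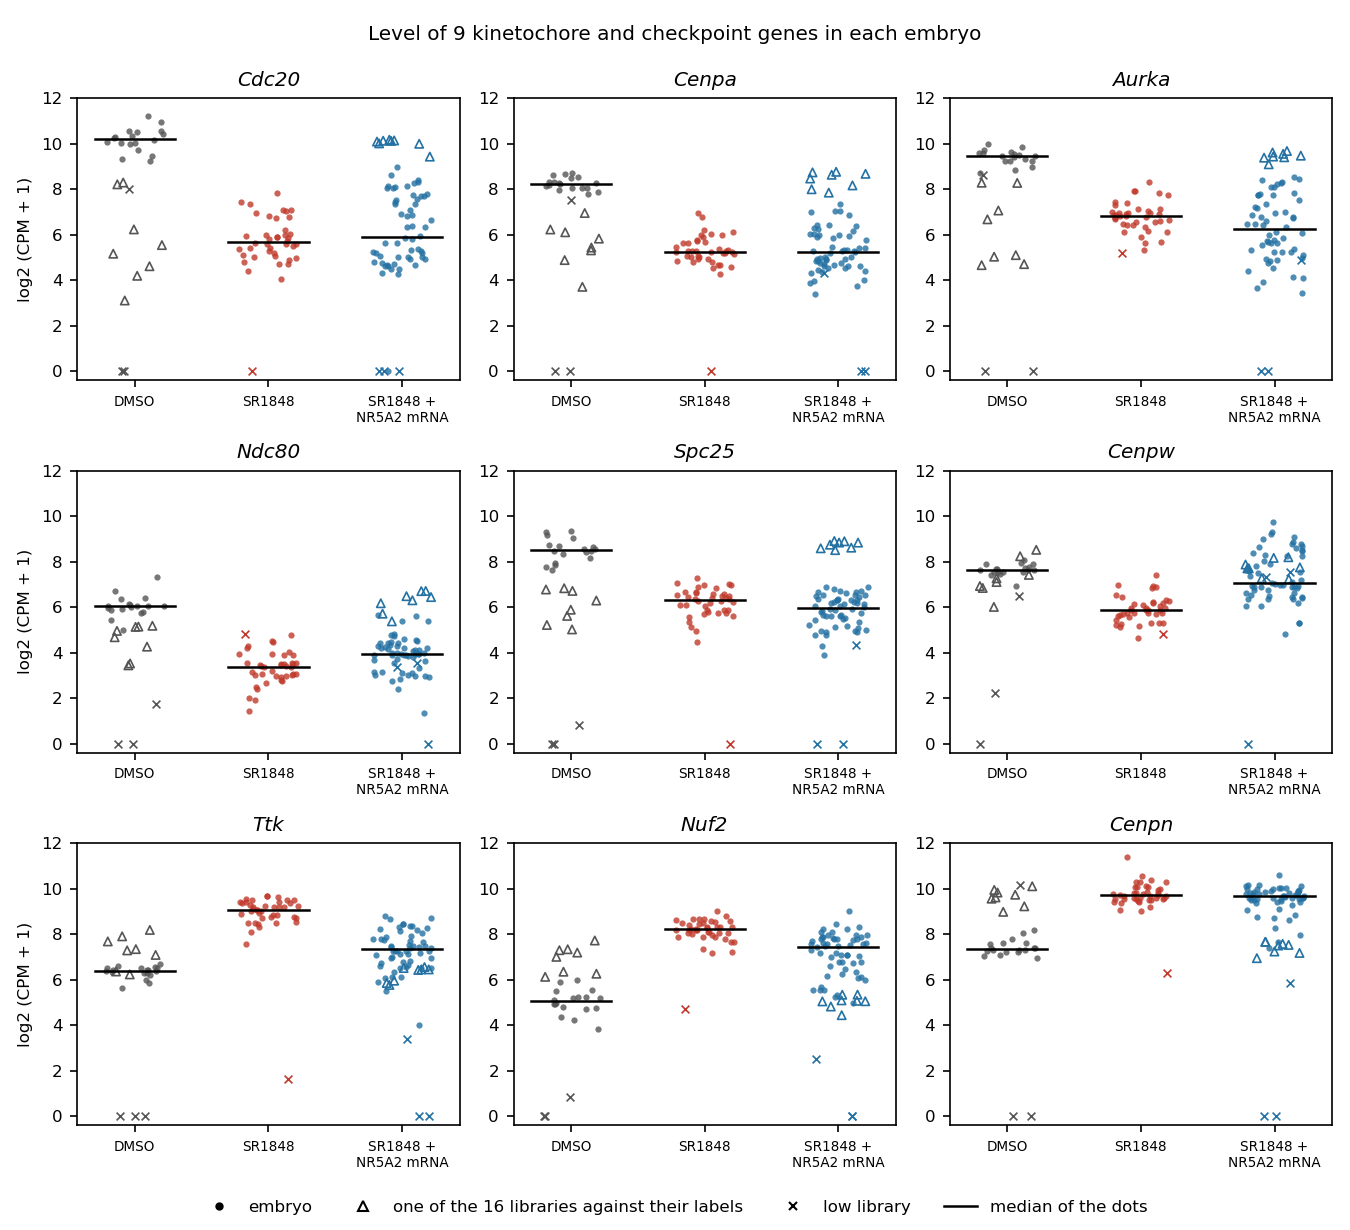
Level of 9 genes in each embryo, as log2 (CPM + 1), by labelled group. Dots are embryos, open triangles the 16 libraries that go against their labels and crosses the low libraries, and bars give the median of the dots. Cdc20, Cenpa, Aurka, Ndc80 and Spc25 of the dots do not overlap between DMSO and SR1848, nor do Ttk, Nuf2 and Cenpn in the other direction.

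The NDC80 complex has 4 subunits, and they did not change together. NDC80 and NUF2 form the end that touches the microtubule, and SPC24 and SPC25 the end that joins the kinetochore. Ndc80 (ENSMUSG00000024056, chromosome 17, 71496100 to 71526857) had a median of 54.5 CPM in DMSO (0 to 161), 9.66 in SR1848 (1.70 to 27.4) and 14.9 in SR1848_NR5A2OE (0 to 104). It was below the DMSO median in 41 of 41 SR1848 embryos and fell by 2.31 log2 (SE 0.30, adjusted p = 2.06e-11). Nuf2 (ENSMUSG00000026683, chromosome 1, 169497934 to 169531464), its direct partner, had 36.3 CPM in DMSO (0 to 211), 294 in SR1848 (25.3 to 518) and 136 in SR1848_NR5A2OE (0 to 526). It was above the DMSO median in 40 of 41 SR1848 embryos and above every DMSO embryo in 35, and rose by 2.41 log2 (SE 0.31, adjusted p = 4.02e-11). Under maternal scaling Nuf2 was still higher, by 1.09. Spc25 fell by 2.06 log2 (SE 0.34), and Spc24 (-0.40, SE 0.24) did not pass the test.

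Among the 7 checkpoint genes 2 were higher and 3 lower, a split near the 33.1% and 36.0% of all genes. Cdc20 (ENSMUSG00000006398, chromosome 4, 118432901 to 118437352), the protein that the checkpoint restrains, had the lowest fitted change of the 38 genes. Its CPM ran from 0 to 2363 with a median of 842 in DMSO, from 0 to 229 with a median of 48.3 in SR1848, and from 0 to 1157 with a median of 80.7 in SR1848_NR5A2OE. The SR1848 embryos were all below the DMSO median, and the fitted change was -3.74 log2 (SE 0.48, adjusted p = 2.71e-11), or -3.81 without the 16. Ttk (ENSMUSG00000038379, chromosome 9, 83834689 to 83872389), the kinase MPS1 that starts checkpoint signalling, moved the other way. It ran from 0 to 292 CPM with a median of 85.3 in DMSO, from 2.11 to 835 with a median of 536 in SR1848, and from 0 to 452 with a median of 145 in SR1848_NR5A2OE. In 38 of 41 SR1848 embryos Ttk was above every DMSO embryo, and it rose by 2.42 log2 (SE 0.30, adjusted p = 5.33e-12), with 0.93 under maternal scaling. Mad2l1, which binds CDC20, rose by 0.58 log2 (SE 0.21) and changed by -1.21 under maternal scaling. Bub3 fell by 1.30 and Bub1b, the BUBR1 subunit of the complex that inhibits CDC20, by 1.14. Bub1 (0.44) and Mad1l1 (0.07) did not pass the test.

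Of the 4 passenger genes 3 were lower, where 36.0% of all genes were. Incenp (ENSMUSG00000024660, chromosome 19, 9872296 to 9899551), the scaffold, had a median of 84.4 CPM in DMSO (0 to 163), 19.8 in SR1848 (0 to 48.2) and 12.3 in SR1848_NR5A2OE (0 to 126), and fell by 2.04 log2 (SE 0.37, adjusted p = 1.05e-06). Aurkb (chromosome 11, 69045647 to 69051664), the kinase of somatic cells, had 78.5 CPM in DMSO (0 to 142), 19.5 in SR1848 (0 to 72.8) and 18.7 in SR1848_NR5A2OE (0 to 144). It fell by 1.68 log2 (SE 0.36, adjusted p = 2.24e-05). Aurkc (ENSMUSG00000070837, chromosome 7, 6995300 to 7003091), the form known from germ cells, had 86.7 CPM in DMSO (0 to 220), 28.9 in SR1848 (6.33 to 73.1) and 22.8 in SR1848_NR5A2OE (0 to 168). Its change was -1.62 log2 (SE 0.33, adjusted p = 8.02e-06), and for all 3 genes every SR1848 embryo was below the DMSO median. Birc5, or survivin, did not follow its partners: its change was 0.42 log2 (SE 0.21, adjusted p = 0.070), and 0.81 without the 16, where it passed. Under maternal scaling Birc5 changed by -1.12. Cdca8, whose product is a further subunit of the complex, is not among the 4 and is counted below with the spindle genes. It changed by -2.94 log2 (SE 0.41, adjusted p = 3.66e-10).

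Aurka (ENSMUSG00000027496, chromosome 2, 172356190 to 172370535), the kinase of the spindle poles, had a median of 597 CPM in DMSO (0 to 1012), 112 in SR1848 (35.9 to 319) and 87.2 in SR1848_NR5A2OE (0 to 819). It fell by 2.13 log2 (SE 0.39, adjusted p = 8.42e-07). Plk1, which acts at poles and kinetochores, fell by 1.66 (SE 0.32). Mos (ENSMUSG00000078365, chromosome 4, 3870657 to 3872105), the oocyte kinase that holds the egg in metaphase, is a low gene. Without the 16 and the low libraries it had at least 10 counts in 7 of 18 DMSO, 32 of 40 SR1848 and 34 of 56 SR1848_NR5A2OE embryos. In all libraries the median of Mos was 1.40 CPM in DMSO (0 to 8.40), 4.17 in SR1848 (0 to 6949) and 2.46 in SR1848_NR5A2OE (0 to 13.7). The fitted change of 5.70 log2 (SE 0.86, adjusted p = 5.90e-09) rested on SR1848 8 of experiment 1, a low library that held 97.3% of the group's Mos. Without the low libraries Mos changed by 1.18, which still passed, and 33 of 40 SR1848 embryos were above the DMSO median without the 16 and the low libraries.

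Of the other genes named Cenp, Cenpe, the kinetochore motor (ENSMUSG00000045328, chromosome 3, 135212537 to 135273611), had a median of 225 CPM in DMSO (0 to 496), 109.9 in SR1848 (16.9 to 238) and 81.0 in SR1848_NR5A2OE (0 to 436), and fell by 1.01 log2 (SE 0.28, adjusted p = 8.44e-04). Cenpv (chromosome 11, 62524946 to 62539261) had 9.06 CPM in DMSO (0 to 77.8), 33.7 in SR1848 (0 to 52.6) and 34.6 in SR1848_NR5A2OE (0 to 78.2). It rose by 1.09 log2 (SE 0.30, adjusted p = 9.91e-04), by 2.44 without the 16, and had -0.13 under maternal scaling. Cenpf (0.08) and Cenpj (0.42), the latter a protein of the centriole, did not pass the test. Cenpb, which binds satellite DNA, had medians of 0.405, 0 and 0.199 CPM in the 3 groups.

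Fitted changes without the 16 libraries lay near those above for the lower genes and were larger for the higher ones. Of the inner layer Cenpt had -2.85, Cenpa -2.59, Cenpl -2.56, Cenpp -2.44, Cenpm -2.15, Cenps -1.75, Cenpc1 -1.61, Cenpw -1.45, Cenpq -1.37 and Cenph -0.80, and Cenpo had 2.40, Cenpu 1.84 and Cenpx 1.68. In the NDC80 complex Ndc80 had -2.37, Spc25 -2.21 and Nuf2 3.44. Of the checkpoint Bub3 had -1.43, Bub1b -1.27, Mad2l1 0.69 and Ttk 2.90. Of the kinases, their partner and the motor, Aurka had -2.21, Incenp -2.08, Aurkb -1.85, Plk1 -1.80, Aurkc -1.79 and Cenpe -1.10. Mos had 7.08, with SR1848 8 of experiment 1 still included, and 1.85 without the low libraries as well. All of these passed the test.

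Without the 16 and the low libraries, no SR1848 embryo overlapped the DMSO embryos for 16 of the 38 genes. The 5 that lay above were Cenpn, Cenpo, Cenpx, Nuf2 and Ttk, and among all genes 6.23% did so. The 11 that lay below were Aurka, Bub3, Cdc20, Cenpa, Cenpc1, Cenpl, Cenpp, Cenpt, Incenp, Ndc80 and Spc25, where 12.6% of all genes did so. Counts of the 39 genes made up a median of 0.636% of an embryo's counts in DMSO, 0.402% in SR1848 and 0.342% in SR1848_NR5A2OE in those libraries. Libraries 1 to 8 of experiment 2 stood against their labels here too, with a median of 0.314% in those labelled DMSO and 0.661% in those labelled SR1848_NR5A2OE.

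**Figure D3:**
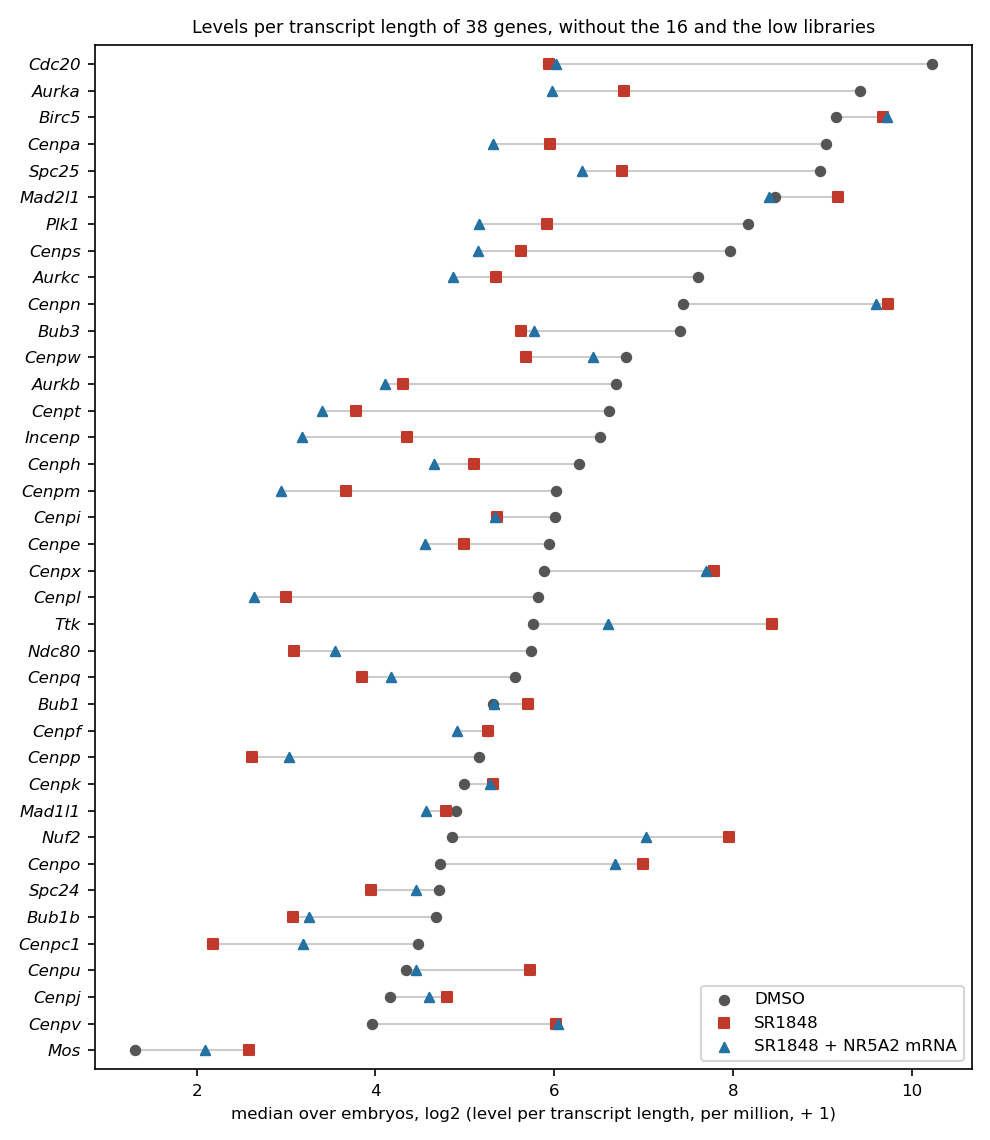
Median level of 38 genes per annotated transcript length, as log2 (length-scaled CPM + 1) on the x axis, in the 3 labelled groups without the 16 and the low libraries, ordered by the level in DMSO. Cdc20 led in DMSO at 1199 and stood at 60.6 in SR1848, while Cenpn went from 172 to 854.

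The order of the levels per transcript length changed with the inhibitor. In DMSO, without the 16 and the low libraries, Cdc20 (median level 1199), Aurka (684), Birc5 (570), Cenpa (527) and Spc25 (503) led. In SR1848 the leading genes were Cenpn (854), Birc5 (816), Mad2l1 (577), Ttk (346) and Nuf2 (247), and Cdc20 stood 12th at 60.6. In SR1848_NR5A2OE Birc5 (846) and Cenpn (775) led and Cdc20 had 63.9. Within the NDC80 complex the subunit Nuf2 had a level of 28.1 beside 52.3 for Ndc80 in DMSO, and 247 beside 7.54 in SR1848. These levels sum all annotated transcripts of a gene, coding or not. Among embryos with at least 10 counts, Mad2l1-203 held a median of 59.4% of Mad2l1 counts in DMSO and 70.5% in SR1848. It is annotated as retaining an intron. Cenpa-202, annotated as a target of nonsense-mediated decay, held 58.6% of Cenpa counts in DMSO and 50.1% in SR1848.

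Genes that work with these proteins were read from lists, and their counts can be set beside the 33.1% higher and 36.0% lower of all genes. Spindle motors and assembly factors were lower in 16 of 18 and higher in 1. Among them Trip13, which takes apart the checkpoint complex, fell by 6.65 log2 (SE 0.73) and Kif2c, a kinesin that removes tubulin from microtubule ends, by 2.07 (SE 0.25). Of 7 genes for the RZZ and Ska complexes 5 were lower and 1 higher, with Ska1 at -4.14 (SE 0.52) and Ska2 at -3.63 (SE 0.41). Oip5 (-4.38, SE 0.55) and Mis18a (-2.45, SE 0.44), which help to load CENP-A, were among 3 lower genes of 4 in that list. Of 14 genes for cohesin, shugoshin and separase 7 were lower and 1 higher, with Smc3 at -3.80 and Sgo2a, which protects centromeric cohesin, at -3.08. The other partners of the NDC80 complex had 3 lower and 1 higher of 6 (Nsl1 -3.58 and Pmf1 1.12). The anaphase-promoting complex and its inhibitors had 6 higher and 6 lower of 17, but 1 higher and 15 lower under maternal scaling. Anapc7, a subunit, fell by 3.49, and Fzr1, the CDH1 activator that takes over from CDC20, rose by 2.43 (SE 0.35). Without the 16 libraries the lists had the same counts, except for 2 higher genes in the cohesin list and 5 tested genes in the loading list. Under maternal scaling no gene of the other 5 lists was higher, and 17 of 18 spindle genes, 6 of 7 of RZZ and Ska, 4 of 4 of the loading list, 12 of 14 of the cohesin list and 5 of 6 partners of the NDC80 complex were lower. Of all 14499 genes 818 were higher and 9573 lower on that scale.

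SR1848_NR5A2OE against SR1848 asks what differs when embryos given SR1848 are also labelled as given NR5A2 mRNA. This comparison shares the SR1848 embryos with the first, and in it NR5A2, GFP and the injection cannot be told apart. Cenpw, a DNA-binding subunit of the inner layer, was higher in embryos labelled SR1848_NR5A2OE than in those labelled SR1848, and Ttk, Cenpu and Nuf2 were lower. Of the 38 genes 8 were higher and 6 lower, with a median of 0.08 log2, beside 29.6% higher and 13.0% lower of all genes and a median of 0.09. Without the 16 libraries 4 were higher and 11 lower (21.8% and 12.4% of all genes). Without the 16, the low and the other SR1848_NR5A2OE libraries under 100 CPM of GFP 7 were higher and 17 lower (24.4% and 18.1% of all genes). Cenpa, Cenpl and Cenpt changed sign in that setting, and 8 of the 14 genes called in all libraries kept call and sign. Experiment 1 alone gave 1 higher and 4 lower, beside 1814 and 693 of all 13603 genes, and experiment 2 alone 9 and 4, beside 4444 and 1721 of all 15253. Under maternal scaling, which moved the median of all genes to 0.90, 30 were higher and 4 lower, beside 9306 and 349 of all 14499 genes. Of the 14 genes called in all libraries Cenpo and Mad2l1 changed sign there.

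Cenpw (ENSMUSG00000075266, chromosome 10, 30194569 to 30200560) had a median of 189 CPM in DMSO (0 to 368), 58.0 in SR1848 (24.1 to 172) and 154 in SR1848_NR5A2OE (0 to 856). The highest embryo, SR1848_NR5A2OE 34 of experiment 2, had only 9.11 CPM of GFP and 318 CPM of Nr5a2. Embryos labelled SR1848_NR5A2OE were above the SR1848 median in 63 of 67 and above every SR1848 embryo in 31. Without the 16 and the low libraries these were 53 and 24 of 56. The fitted change was 1.76 log2 (SE 0.22, adjusted p = 4.67e-11). It was 1.73 without the 16 libraries, 2.10 in experiment 1 and 1.53 in experiment 2. Against DMSO the change was 0.24 (SE 0.23, adjusted p = 0.371), which did not pass the test, but single embryos spread to both sides. Without the 16 and the low libraries 17 of 56 embryos labelled SR1848_NR5A2OE lay above every DMSO embryo and 23 below every one.

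Ttk was below the SR1848 median in all 67 embryos labelled SR1848_NR5A2OE, and in 56 of 56 without the 16 and the low libraries. It fell by 1.70 log2 (SE 0.22, adjusted p = 1.89e-10), by 1.60 without the 16 and by 1.04 under maternal scaling. Against DMSO Ttk was still higher, by 0.72 (SE 0.26, adjusted p = 0.013) and by 1.30 without the 16, but had -0.11 under maternal scaling. Cenpu fell by 1.38 (SE 0.20), or by 1.31 without the 16, and did not differ past the threshold from DMSO (0.13, SE 0.23). Nuf2 fell by 1.03 (SE 0.23, adjusted p = 9.40e-05), with -0.89 without the 16. It was below the SR1848 median in 62 of 67 embryos, and in 51 of 56 without the 16 and the low libraries. It was higher than in DMSO by 1.38 (SE 0.28), and by 2.55 without the 16. Mad2l1 fell by 0.58, or by 0.60 without the 16, and Cenpo by 0.50, the latter with -0.37 (adjusted p = 0.14) without the 16.

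By role 5 of 16 inner kinetochore genes, 2 of the NDC80 complex and 1 of the checkpoint were higher, and no passenger gene passed in either direction. Among all genes 29.6% were higher and 13.0% lower, so that the inner kinetochore share of higher genes lay near the background. Under maternal scaling 12 of 16 inner kinetochore, 3 of 4 NDC80 complex, 5 of 7 checkpoint and 4 of 4 passenger genes were higher, and so were 9306 of all 14499 genes. Of the 8 higher genes 4 did not pass without the 16 libraries. Cdc20 rose by 1.70 log2 (SE 0.39, adjusted p = 1.57e-04) in all libraries and had 0.73 (adjusted p = 0.058) without the 16, 0.80, which passed, without the 16 and the low libraries, and 0.19 without those under 100 CPM of GFP as well. Cenpa (0.89), Cenpl (1.00) and Cenpt (1.04) passed in all libraries and had 0.07, 0.11 and 0.14 without the 16. Without the 16, the low libraries and those under 100 CPM of GFP the value of Cenpa was -0.40, past the threshold, and those of Cenpl and Cenpt were -0.21 and -0.49. Cenpp (1.08, or 0.60 without the 16), Ndc80 (1.14, or 0.59), Spc24 (0.81, or 0.77) and Cenpw passed in both. Aurka (0.57), Aurkb (0.58), Aurkc (0.01), Incenp (0.21), Cenpe (-0.06) and Cenpv (0.02) did not pass in all libraries. Without the 16 Incenp (-0.68), Aurkc (-0.64), Cenpm (-0.60), Cenpe (-0.55), Cenps (-0.53) and Cenph (-0.47) were lower in SR1848_NR5A2OE than in SR1848. Of the spindle motors and assembly factors 7 of 18 were higher in SR1848_NR5A2OE, Trip13 (2.94, SE 0.60) and Kif2c (1.06, SE 0.20) among them, and 2 lower. Without the 16 libraries, however, 2 were higher and 3 lower. Under maternal scaling 16 were higher and 0 lower, where 9306 of all 14499 genes were higher and 349 lower. Mos had -4.89 in all libraries and -0.49, past no threshold, without the low ones.

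**Figure D4:**
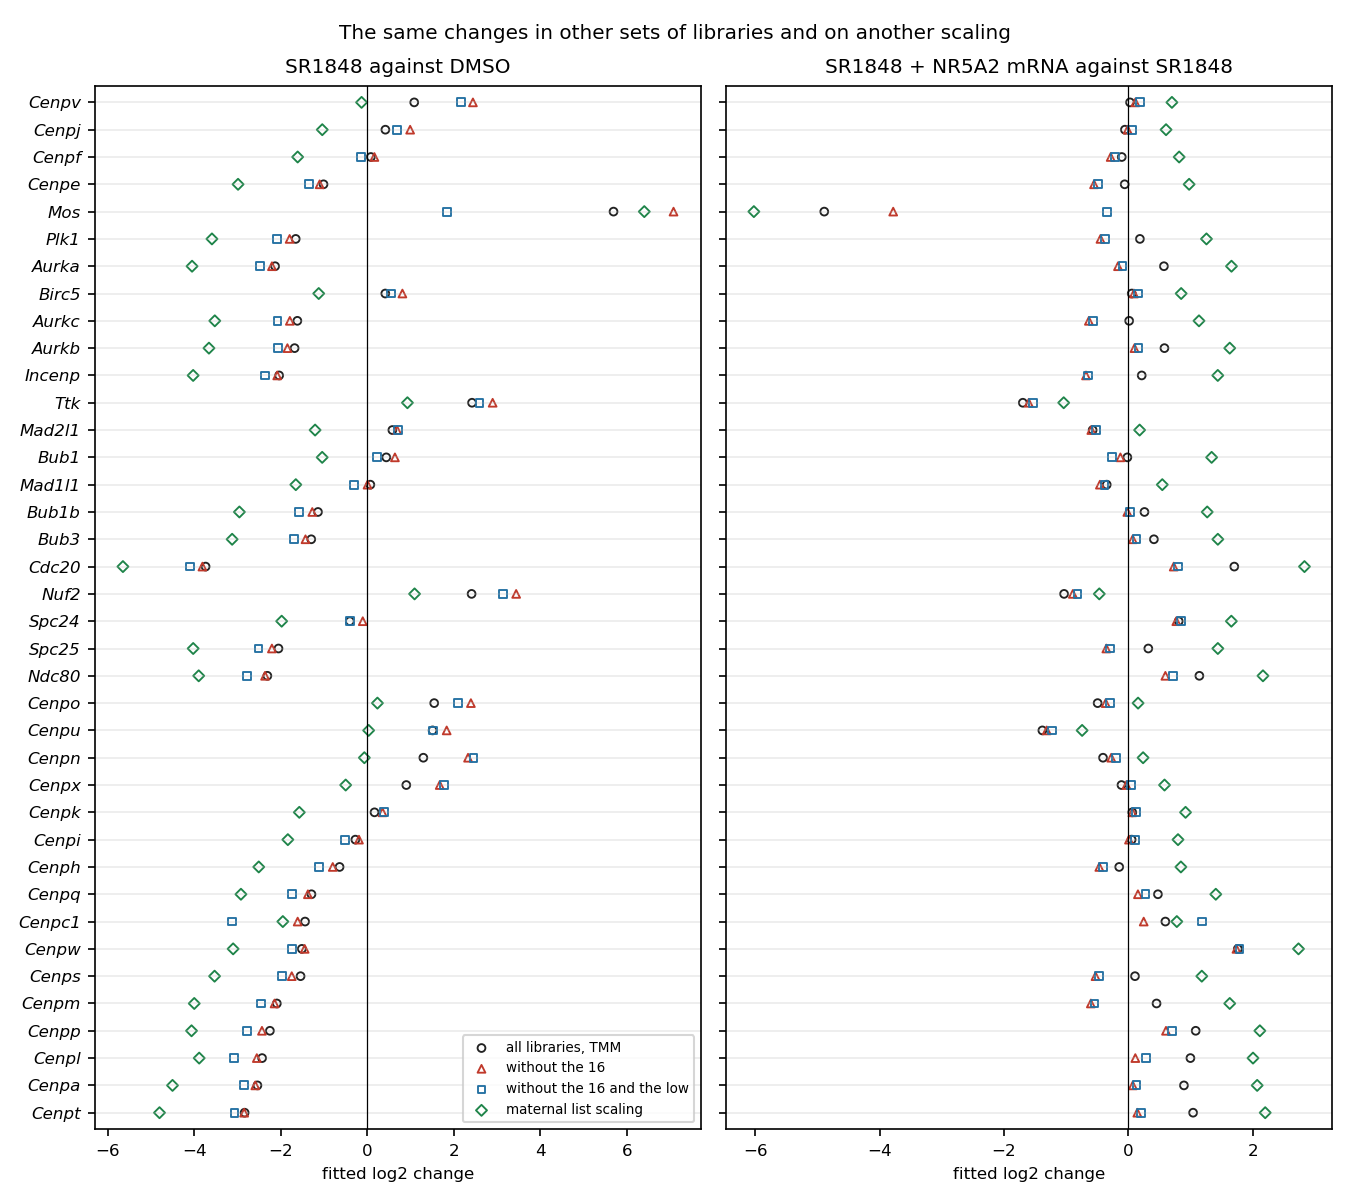
Fitted log2 change of the 38 genes (x axes) for SR1848 against DMSO (left) and SR1848_NR5A2OE against SR1848 (right) in all libraries, in those left without the 16, in those left when low ones are dropped too, and with libraries scaled to 69 maternal transcripts. On the left Cdc20, Cenpa and Aurka stay below 0 and Ttk and Nuf2 above 0 in the 4 settings; on the right Cenpa goes from 0.89 to 0.07 without the 16, and Cenpw stays between 1.73 and 2.73.

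SR1848_NR5A2OE against DMSO gives what differed between embryos labelled as given both the inhibitor and the mRNA and the solvent control. Of the 38 genes 7 were higher and 20 lower, beside 30.9% and 25.8% of all genes. Without the 16 libraries 10 were higher and 20 lower (44.0% and 29.9% of all genes), and all 27 genes called in all libraries kept their call. Maternal scaling gave 2 higher and 26 lower, beside 1300 and 6127 of all 14499 genes, with a sign change for Birc5 and Ttk among the called genes. Cdc20 was lower by 2.04 log2 (SE 0.43, adjusted p = 7.28e-05), and by 3.09 without the 16. Other lower genes had larger changes without the 16: Incenp went from -1.83 to -2.77, Cenpt from -1.80 to -2.71, Spc25 from -1.74 to -2.56, Cenpa from -1.65 to -2.52, Aurkc from -1.61 to -2.43 and Aurka from -1.56 to -2.37. The same held for the higher genes, with Nuf2 at 1.38 (SE 0.28, adjusted p = 4.23e-05) and 2.55 without the 16, Cenpv at 1.11 and 2.55, Cenpo at 1.05 and 2.03, and Cenpn at 0.89 and 2.05. Mos had 0.81 in all libraries, past no threshold, 3.30 without the 16, which passed, and 1.497 without the low libraries as well. Experiment 2 alone, where the 16 libraries lie, called 0 of the 38 and 0 of all genes by edgeR, with 0 of the 38 and 327 of all 15253 genes at an unadjusted p under 0.05.

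For some genes the sums hide shifts between annotated transcripts, and the genes below were chosen after their values were seen. In single embryos with at least 10 counts of the gene, without the 16 and the low libraries, the coding transcript Ndc80-201 held a median of 92.1% of Ndc80 counts in 18 DMSO embryos (83.6 to 97.2), 56.2% in 39 SR1848 embryos (0 to 94.0) and 9.44% in 55 SR1848_NR5A2OE embryos (0 to 75.9). Its level went from a median of 61.5 CPM of total counts in DMSO (27.9 to 131) to 5.06 in SR1848 (0 to 22.1) and 1.17 in SR1848_NR5A2OE (0 to 16.0). The intron-retaining Ndc80-203 had medians of 1.92, 1.58 and 3.82, and Ndc80-205, annotated as a target of nonsense-mediated decay, 3.10, 1.16 and 3.92. In SR1848_NR5A2OE the medians of these transcripts without a full coding annotation were above those in SR1848, while the coding transcript had its lowest median of the 3 groups. Bub3-201, the main coding transcript of Bub3, had 175 in DMSO, 32.4 in SR1848 and 22.1 in SR1848_NR5A2OE, and Bub3-204, a target of nonsense-mediated decay, 6.26, 10.9 and 18.8. Mad1l1, whose sum did not differ between SR1848 and DMSO past the threshold, had 29.6, 10.5 and 5.06 for the coding Mad1l1-201 and 2.93, 11.4 and 11.1 for Mad1l1-206, a processed transcript. For Cenpw the difference lay in 1 of 2 coding transcripts: Cenpw-202 had 179, 20.8 and 89.5, and Cenpw-201 had 31.4, 29.1 and 27.1. The share of the main coding transcript rose with SR1848 in other genes. Among embryos with at least 10 counts, Spc25-201 went from a median of 79.5% in DMSO to 95.8% in SR1848. Aurkb-201 went from 75.4% to 90.6% and Ttk-201 from 89.2% to 97.4%. A fall of the coding share was thus not a trait of all these genes. The split of reads between transcripts is kallisto's estimate, and no test was made on these levels and shares.

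**Figure D5:**
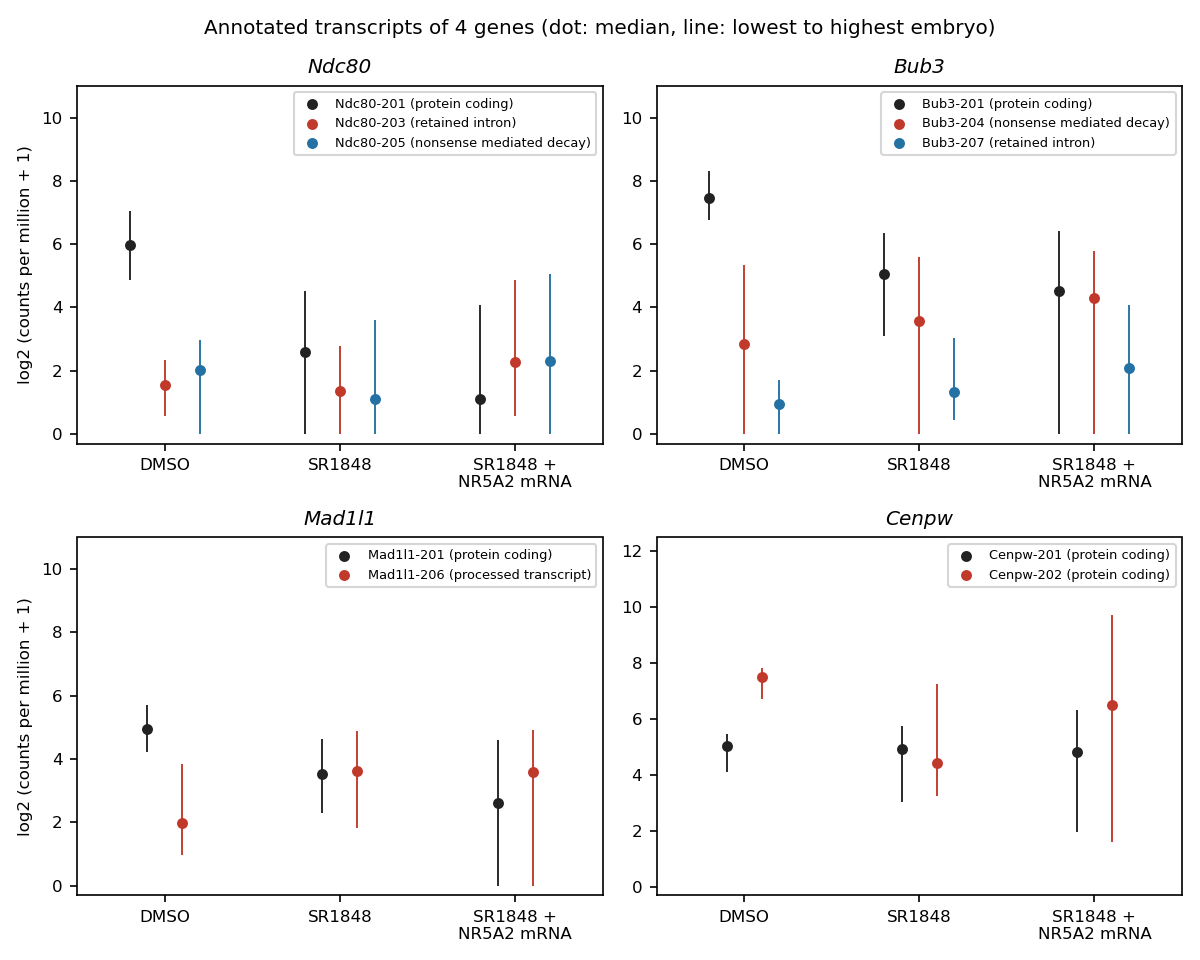
Levels of annotated transcripts of Ndc80, Bub3, Mad1l1 and Cenpw in the 3 labelled groups without the 16 and the low libraries, as log2 (CPM of total counts + 1). Dots are medians and lines run from the lowest to the highest embryo; the median of Ndc80-201 goes from 61.5 to 5.06 and 1.17, and that of Cenpw-202 from 179 to 20.8 and 89.5.

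The authors' deposited table compares transcripts between SR1848_NR5A2OE and SR1848, and lists 209 transcripts of these genes, 169 of them with an adjusted p. Of these, in the authors' deposited table, 22 were higher (13.0%) and 33 lower (19.5%) at an adjusted p under 0.05, beside 13.8% and 10.1% of all 61900 transcripts with an adjusted p. By annotation, 9.78% of the genes' 92 protein-coding transcripts were higher and 30.4% lower in the authors' deposited table, beside 11.5% and 13.5% of all 36274 coding transcripts there. Of the other 77 transcripts 16.9% were higher and 6.49% lower, beside 17.1% and 5.08% of all 24543, so that these shares lay near the background. In that table Ttk-201 had -1.79 log2 (SE 0.15, adjusted p = 3.12e-31), Cenpu-201 -1.50, Nuf2-201 -1.13 and Mad1l1-201 -0.94. Cenpw-202 had 2.14 (SE 0.24, adjusted p = 1.28e-17), Ndc80-205 1.47, Ndc80-203 1.18 and Cenpa-208, with a retained intron, 1.24, while the coding Cenpa-205 had -0.95 in the authors' deposited table. The sign is read as higher in the embryos labelled SR1848_NR5A2OE when positive. Many of that table's fold changes with a small adjusted p lie near 0, so that sizes are given only for those that do not.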

How the data were processed

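RNA of 29 DMSO, 41 SR1848 and 67 SR1848_NR5A2OE single 2-cell mouse embryos was made into SmartSeq2 libraries with oligo-dT priming, per the labels' protocols. The authors deposited kallisto estimated counts per transcript, with no scaling, and Trim Galore 0.6.2, kallisto 0.46.1, R 3.5.1 and DESeq2 1.32.0 are listed per the submitters' processing notes, with the builds mm10 and hg19, the latter with no role stated. The authors also deposited a table of transcripts for SR1848_NR5A2OE against SR1848 with a base mean (a signal of normalised counts), log2 fold changes with their SE, and p-values with adjusted p-values. It gives no sample values.

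Transcripts were summed by the gene symbol of the authors' table, which paired 117523 of 119358 entries; 0.662% of counts had no pair, and 0.158%, in 5 entries, were kept apart. Sums were rounded, since 26.3% of values were not whole. Columns were matched to titles by group name for DMSO, and for the other groups, whose column prefixes are not in the titles, by the sample numbers that only that group has in each experiment. The main test was edgeR 4.0.16 (R 4.3.3), quasi-likelihood, with TMM scaling, filterByExpr (minimum count 10), terms for experiment and group, and Benjamini-Hochberg adjustment over 14499 genes at 0.05. Every adjusted p in the report comes from this test on all libraries unless another setting or the authors' deposited table is named. In another setting the test was fitted anew and the adjustment ran over the genes tested there. CPM used TMM-scaled totals, except for GFP, Nr5a2 and single transcripts, which used unscaled totals. Nr5a2 included the Nr5a2 sequence kept apart. Levels per length divided counts by the transcript lengths of GENCODE M21. The code was tested on simulated data.

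Values by group went to the 2 genes of each role with the smallest p in SR1848 against DMSO, to the genes with the largest rise and fall in each comparison among those averaging at least 3 log2 CPM, and to Mos, Aurkb and Aurkc. Other genes whose values are given were chosen after their values were seen. The genes and lists were chosen with earlier results of these data known. Embryos are the replicates and the labels do not record their parents, so p-values measure the spread between these embryos. Samples of the same number did not rise and fall together by median correlation, which ran from -0.375 to 0.034. The lowest was for DMSO and SR1848_NR5A2OE in experiment 2, over 10 pairs that include the 16 libraries. No pair of libraries was identical. Proteins were not analysed here.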

Additional observations from a re-analysis of the deposited data

How the results depend on the processing

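Counts of genes called of 38, for SR1848 against DMSO, moved by over 1.5 times from 9 higher and 21 lower to 3 higher under maternal scaling, and to 3 higher and 5 lower in experiment 2 alone. For SR1848_NR5A2OE against SR1848 they moved from 8 higher and 6 lower to 30 higher under maternal scaling and to 4 and 11 without the 16 libraries. Without the 16 and the low libraries 14 were lower, beside 2237 of all 15097 genes. Counts moved to 17 lower without those and the SR1848_NR5A2OE libraries under 100 CPM of GFP, and to 1 higher in experiment 1 alone. For SR1848_NR5A2OE against DMSO they moved from 7 and 20 to 2 higher under maternal scaling and to 0 and 0 in experiment 2 alone by edgeR (0 of the 38 and 327 of all 15253 genes had an unadjusted p under 0.05; DESeq2 was not run on that subset). With the replicate block the counts were 9 and 20, 6 and 5, and 7 and 14. Of all 14499 genes they were 4536 and 4957, 3380 and 1115, and 3295 and 2525. The sample numbers are only shared, and no pairing was used. DESeq2 gave 9 and 23, 10 and 5, and 6 and 22. Of all 14499 genes it gave 4396 and 6156, 4736 and 2323, and 4031 and 4824.

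Fitted log2 changes reversed as follows among the called genes and those with values by group. For SR1848 against DMSO under maternal scaling, Cenpv had -0.13, Cenpn -0.07, Cenpx -0.50 and Mad2l1 -1.21, the last 2 past the threshold, and Cenph had 0.41 in experiment 2 alone. For SR1848_NR5A2OE against SR1848, without the 16, then also without the low libraries, then also without those under 100 CPM of GFP, Aurka had -0.17, -0.10 and -0.69, Aurkc -0.64, -0.57 and -0.68, and Incenp -0.68, -0.65 and -1.13. In that last setting Aurkb had -0.54, Cenpa -0.40, Cenpl -0.21 and Cenpt -0.49, Cenpa past the threshold. Aurkc and Incenp had -0.44 and -0.35 in experiment 1 alone and -0.13 and -0.12 with the replicate block. Under maternal scaling Cenpo had 0.15 and Mad2l1 0.18. Cenpe had 0.97 under maternal scaling and 0.033 in experiment 2 alone, and Cenpv -0.045 with relative log expression scaling, -0.044 with DESeq2 and -0.28 in experiment 2 alone. For SR1848_NR5A2OE against DMSO, experiment 2 alone gave Aurkb 0.17, Cenpa 0.040, Cenpe 0.022, Cenpp 0.011, Cenpv -0.24, Mos -0.020, Cenph 0.14, Cenpl 0.13, Cenpn -0.11 and Cenps 0.10. Cenpw had -0.0049 with relative log expression scaling, -0.0050 with DESeq2, -0.37 under maternal scaling, -0.037 with the replicate block and -0.21 without the 16, the low libraries and those under 100 CPM of GFP. Ttk had -0.11 and Birc5 -0.28 under maternal scaling. The cause was not tested. Levels are shares of an embryo's counts, so low genes such as Mos and Cenpp are limited by depth, and values of 0 in low libraries do not show absence.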
